A study of Homo sapiens with 12 samples.

Results

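Messenger RNA levels of 10 genes of the oxidative stress system were followed in the breast cancer cell line MDA-MB-231 under short hairpin knockdown of RIPOR3 and under low oxygen. They are the transcription factor gene NFE2L2, whose protein is NRF2, its inhibitor KEAP1, the NRF2 targets HMOX1, NQO1, GCLC, GCLM, TXNRD1, SRXN1 and SLC7A11, and the superoxide-producing oxidase NOX5. They were chosen by symbol, with earlier results of these data known, from the 24641 gene symbols of the count table, where each of the 10 had 1 row. All 10 were among the 15648 genes with enough reads to be tested.

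NRF2 is made continuously and destroyed continuously, because KEAP1 holds it and feeds it to a CUL3 ubiquitin ligase. Oxidants and electrophiles modify cysteines of KEAP1, and the NRF2 that then escapes pairs with a small MAF protein and binds the antioxidant response element of its targets. Those targets make glutathione, keep thioredoxin reduced, detoxify quinones and break down heme, whereas NOX5 works at the other end of redox balance as a calcium-activated enzyme that turns NADPH and oxygen into superoxide. Because NRF2 is controlled largely through the stability of its protein, the level of NFE2L2 mRNA does not by itself measure its activity.

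The study asked what RIPOR3 does in breast tumour growth and spread, and its title links the stability of the RIPOR3 transcript in hypoxia to METTL3, an enzyme that places the m6A mark on RNA. Stranded mRNA libraries were sequenced from 4 groups of 3. The hypoxia shRIPOR3 group carried the RIPOR3 hairpin and spent 24 hours at 1% O2 and 5% CO2, and the hypoxia shControl group spent the same time there with the control hairpin. The normoxia shRIPOR3 and normoxia shControl groups were the corresponding cells labelled normoxia. The genotype label calls the shControl cells WT. All groups share DMEM with 10% serum and 1% penicillin-streptomycin. The labels give 1 name for the RIPOR3 hairpin, so effects of this hairpin on other transcripts cannot be told apart from effects of losing RIPOR3, and they do not say whether the knockdown line is a clone. Nor do they say that replicates are separate cultures, and the p-values therefore reflect the spread among the deposited samples alone, part or all of which may be technical.

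Library totals ran from 31781324 to 52526813 counts in hypoxia and from 14750734 to 30032858 in normoxia, so depth moved with the oxygen level. RIPOR3, the target of the hairpin, had 9, 3 and 11 counts in the hypoxia shRIPOR3 libraries, against 33, 18 and 30 in hypoxia shControl. In normoxia it had 0, 0 and 1 counts with shRIPOR3, against 7, 3 and 7 with shControl. The shRIPOR3 counts lay below the shControl counts at each oxygen level, although the gene was scarce throughout. The genes VIM, CD44 and EGFR, which this line is known to express, summed to between 1045 and 1911 CPM (read counts relative to library size, after TMM scaling) in every library. The 7 luminal markers summed to between 41.0 and 53.6 CPM. Of these ESR1 averaged only 0.136 to 0.226 CPM by group, so nearly all of the sum came from the other luminal markers, which were not all absent. The lymphocyte and macrophage markers PTPRC, CD3E and CD68 averaged at most 0.102 CPM in any group, with CD3E at 0 in hypoxia shRIPOR3 and normoxia shControl. The 5 blood and endothelial markers together summed to 3.46 to 4.29 CPM in hypoxia shRIPOR3, against 12.9 to 13.8 CPM in hypoxia shControl, and to 2.47 to 3.01 CPM in normoxia shRIPOR3, against 7.28 to 8.30 CPM in normoxia shControl, nearly all of it PECAM1 and CDH5.

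The antioxidant response element core, TGACNNNGC, was searched on both strands of RefSeq promoter windows (GRCh38.p14) that run from 250 bases before to 50 bases after a gene's start. The tables held 11 windows for 8 of the 10 genes, all but HMOX1 and SLC7A11. The core occurred in 4 of these 11 windows, belonging to KEAP1, GCLM and TXNRD1, against 13.3% of all 35116 windows. The 130 bases that precede the start site are printed for these windows, with matches to the core in capitals, and for NOX5, whose window held no match. Sequences run 5′ to 3′ on the strand of the gene, so that a match on the opposite strand appears as its reverse complement.
KEAP1 (chr19:10502772-10502901, minus strand): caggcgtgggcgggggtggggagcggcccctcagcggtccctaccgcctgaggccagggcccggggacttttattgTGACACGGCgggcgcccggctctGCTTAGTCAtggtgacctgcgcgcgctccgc
GCLM (chr1:93909431-93909560, minus strand): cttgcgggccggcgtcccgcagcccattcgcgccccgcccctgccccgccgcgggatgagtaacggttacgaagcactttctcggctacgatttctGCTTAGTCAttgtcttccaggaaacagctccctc
TXNRD1, first start (chr12:104215649-104215778, plus strand): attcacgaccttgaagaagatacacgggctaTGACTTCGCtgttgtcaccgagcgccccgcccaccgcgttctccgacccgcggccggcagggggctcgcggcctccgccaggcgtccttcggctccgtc
TXNRD1, second start (chr12:104286902-104287031, plus strand): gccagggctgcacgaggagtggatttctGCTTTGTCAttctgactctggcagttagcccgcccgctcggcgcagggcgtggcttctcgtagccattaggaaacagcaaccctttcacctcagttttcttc
NOX5 (chr15:69014565-69014694, plus strand): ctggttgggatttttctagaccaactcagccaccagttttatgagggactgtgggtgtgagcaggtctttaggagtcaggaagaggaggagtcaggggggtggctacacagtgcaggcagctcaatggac

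Counting back from the start site, the KEAP1 window held TGACACGGC at -54 to -46 on the strand of the gene and TGACTAAGC at -31 to -23 on the opposite strand. GCLM, the regulatory subunit of glutamate-cysteine ligase, held the same 9 letters, TGACTAAGC, at -34 to -26 on the opposite strand. The first TXNRD1 start was preceded by TGACTTCGC at -99 to -91, and a further match, TGACGGAGC, crossed this start site and is not in capitals. The second TXNRD1 start was preceded by TGACAAAGC at -102 to -94 on the opposite strand. No match to this core lay in the windows of NFE2L2, NQO1, GCLC, SRXN1 or NOX5, which says only that these letters are absent from those 300 bases. The hypoxia-inducible factor core was also searched on both strands: its GCGTG form lay in 8 of the 11 windows, against 36.5% of all windows, and its ACGTG form in 0 of the 11, against 21.4% of all windows. None of these matches overlapped another, and each describes letters in the reference rather than a bound site.

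Levels were divided by the length of the union of annotated exons, which can exceed that of the transcript expressed, so genes can be compared only roughly. By this measure the members spanned more than 2 orders of magnitude. In normoxia shControl the mean level was 97.2 CPM per kilobase for TXNRD1, thioredoxin reductase, and 55.4 for the quinone reductase NQO1. KEAP1 and NFE2L2 followed at 19.7 and 10.1 CPM per kilobase. The glutathione synthesis genes came next, with GCLM at 7.77, the cystine importer SLC7A11 at 4.70 and GCLC, the catalytic subunit of the same ligase as GCLM, at 2.94. SRXN1, sulfiredoxin, and HMOX1, heme oxygenase, stood at 1.74 and 1.14, and NOX5 was lowest at 0.338 CPM per kilobase. The last place of NOX5 rests on its annotated exon length of 12511 bases, against 2405 for HMOX1. In plain CPM NOX5 averaged 4.23 in normoxia shControl, above HMOX1 at 2.73. No 2 neighbours in the order per kilobase overlapped between the 3 libraries. The order was the same in hypoxia shControl, where SRXN1 overlapped HMOX1 and GCLM overlapped SLC7A11. In both shRIPOR3 groups HMOX1 changed places with SRXN1, the libraries of the 2 genes overlapping, and NOX5 was lower still, at 0.0332 CPM per kilobase in hypoxia and 0.0318 in normoxia. GCLM and SLC7A11 also overlapped in normoxia shRIPOR3.

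**Figure D1:**
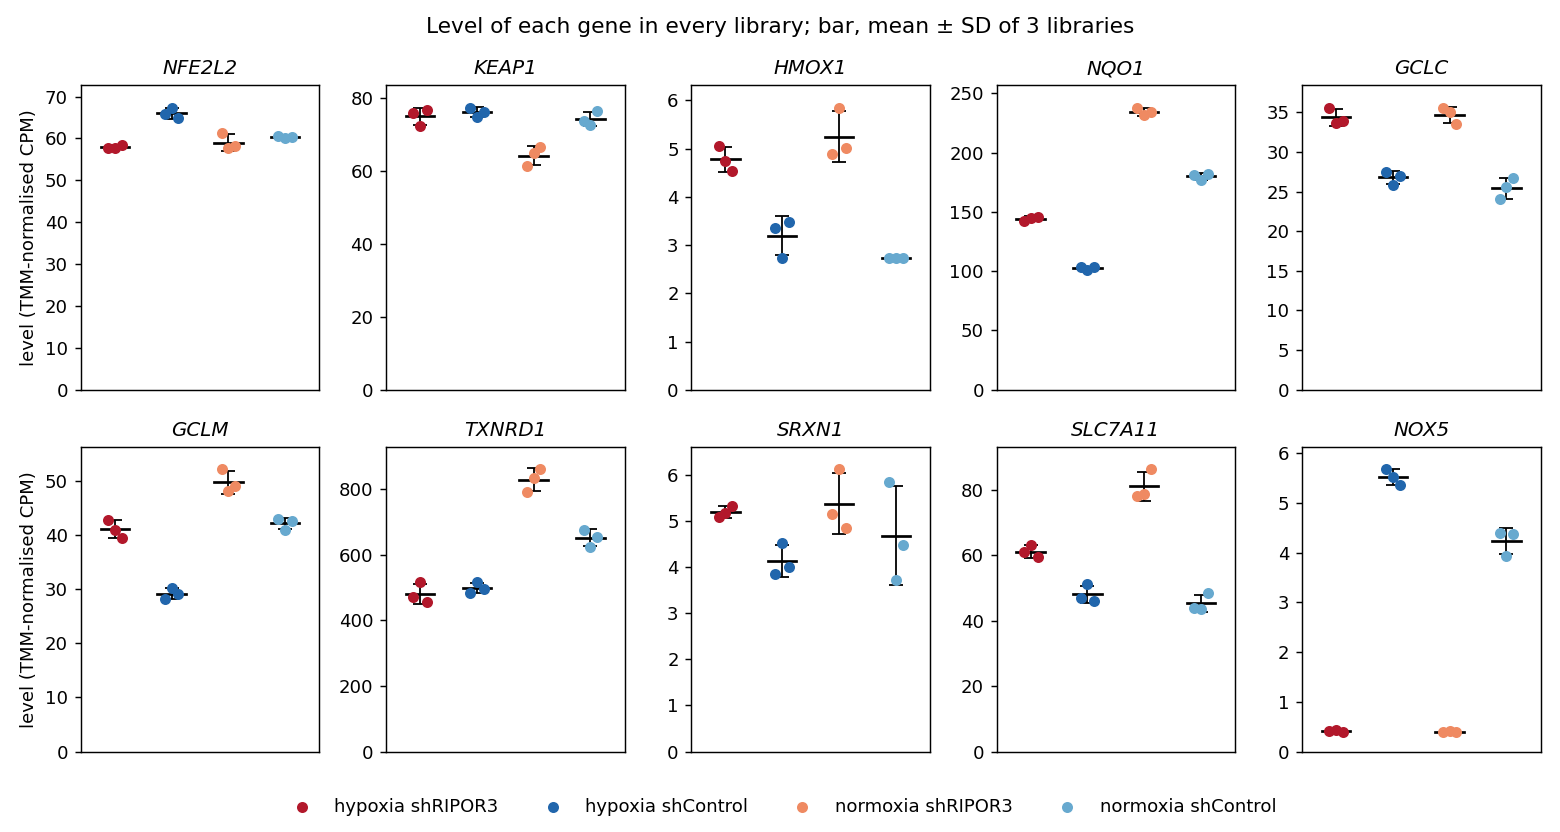
Level of each gene in the 12 libraries, as CPM after TMM scaling on axes that start at 0, by group, with 1 point per library, a line at the group mean and an error bar of 1 SD. NOX5 lies between 0.385 and 0.434 CPM in every shRIPOR3 library, against 3.93 to 5.67 CPM in every shControl library, whereas NQO1 and TXNRD1 are lower in hypoxia with either hairpin.

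Knockdown of RIPOR3 went with more mRNA for most of the antioxidant enzymes and with far less NOX5. In hypoxia, 6 of the 10 genes were higher in shRIPOR3 than in shControl (HMOX1, NQO1, GCLC, GCLM, SRXN1 and SLC7A11) and 2 were lower (NFE2L2 and NOX5), in edgeR's quasi-likelihood test with Benjamini-Hochberg adjustment over all tested genes and a threshold of 0.05. Over all tested genes, 30.7% were called higher and 31.2% lower in that comparison. In normoxia, 6 were higher (HMOX1, NQO1, GCLC, GCLM, TXNRD1 and SLC7A11) and 2 lower (KEAP1 and NOX5), against 25.1% and 20.6% of all tested genes. The median log2 fold change of the 10 genes was 0.34 in hypoxia and 0.29 in normoxia, beside 0.00 and 0.03 for all tested genes. Because the 10 were chosen with earlier results of these data known, an excess over all tested genes is not independent support for a shift of the set. The gene lists below were chosen in the same way. The 5 genes HMOX1, NQO1, GCLC, GCLM and SLC7A11 rose at each oxygen level. These comparisons share no library, but both set the same RIPOR3 hairpin against the same control hairpin in the same fit.

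**Figure D2:**
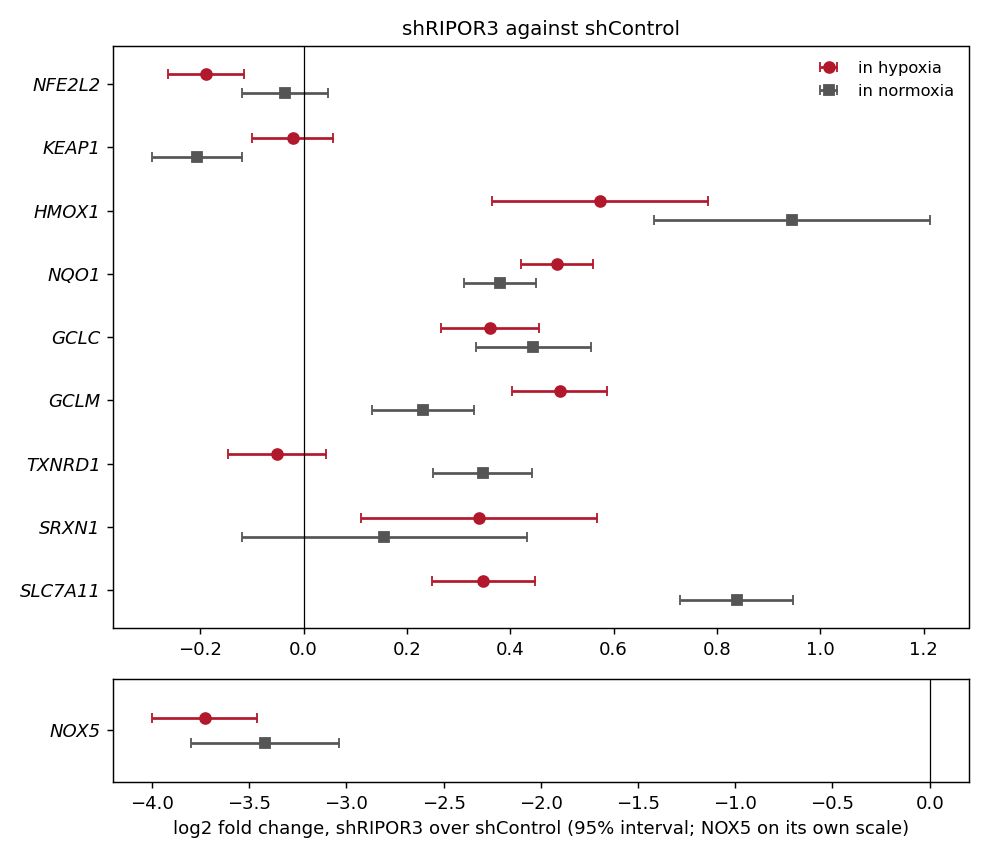
Log2 fold change of each gene, shRIPOR3 over shControl, with its 95% interval, in hypoxia and in normoxia, with NOX5 on its own axis. The intervals of HMOX1, NQO1, GCLC, GCLM and SLC7A11 lie above 0 at both oxygen levels, and NOX5 lies at -3.73 in hypoxia and -3.42 in normoxia.

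The 2 regulators moved little. NFE2L2 (GRCh38, GENCODE 29 annotation, chr2:177227595-177392697, minus strand) had 57.6, 57.6 and 58.5 CPM in hypoxia shRIPOR3, against 65.9, 67.4 and 64.8 in hypoxia shControl. In normoxia it had 61.3, 57.6 and 58.1 CPM with shRIPOR3, against 60.5, 60.1 and 60.4 with shControl. The hypoxia shControl libraries were the highest of the 12, and the other groups lay close together. NFE2L2 was thus lower in shRIPOR3 within hypoxia (log2 fold change -0.19 ± 0.0354, SE; adjusted p = 6.25e-05) and showed no detected difference within normoxia (-0.04, 95% interval -0.12 to 0.05). Its exons share 1054 bases with the neighbour AC019080.1, which reached at most 1.12 CPM in any library. They also share 54 bases with AGPS on the opposite strand, a more abundant gene with 73.8 to 126 CPM per library, which was lower in hypoxia (-0.46 ± 0.0398 with shRIPOR3 and -0.68 ± 0.0404 with shControl). Its part in the NFE2L2 values was not tested.

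KEAP1 (chr19:10486120-10503741, minus strand), the adaptor that marks NRF2 for destruction, had 75.7, 72.4 and 76.7 CPM in hypoxia shRIPOR3, against 77.3, 74.7 and 76.2 in hypoxia shControl. It had 61.3, 64.8 and 66.4 CPM in normoxia shRIPOR3, against 73.5, 72.6 and 76.3 in normoxia shControl. The 3 normoxia shRIPOR3 libraries were below all others, and the remaining groups overlapped. The difference between hairpins was -0.21 ± 0.0420 in normoxia (adjusted p = 0.000278) and -0.02 in hypoxia (95% interval -0.10 to 0.06). KEAP1 was called higher in hypoxia than in normoxia with shRIPOR3 (0.22 ± 0.0399), with 0.04 and an interval of -0.05 to 0.12 with shControl. The ratio of NFE2L2 to KEAP1, both per kilobase, was 0.486 ± 0.0127 in hypoxia shRIPOR3, 0.546 ± 0.0184 in hypoxia shControl, 0.580 ± 0.0429 in normoxia shRIPOR3 and 0.512 ± 0.0126 in normoxia shControl (mean ± SD, n = 3 each).

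HMOX1 and NQO1 both rose with the knockdown at each oxygen level, and NQO1 also fell in hypoxia with both hairpins. HMOX1 (chr22:35380361-35394214, plus strand), which opens the heme ring and frees its iron, had 5.05, 4.74 and 4.54 CPM in hypoxia shRIPOR3, against 3.36, 2.74 and 3.49 in hypoxia shControl. In normoxia it had 4.89, 5.85 and 5.00 CPM with shRIPOR3, against 2.73, 2.74 and 2.73 with shControl. Every shRIPOR3 library was above every shControl library, at 1.49 times the shControl level in hypoxia (log2 0.57 ± 0.101, adjusted p = 2.91e-05) and 1.93 times in normoxia (0.94 ± 0.129, adjusted p = 1.82e-06). HMOX1 was not called between hypoxia and normoxia with either hairpin (-0.14, interval -0.35 to 0.07, with shRIPOR3, and 0.23, -0.04 to 0.50, with shControl), although the 3 hypoxia shControl libraries lay just above the 3 normoxia ones. Without replicate 2 of hypoxia shControl this last comparison was called higher (0.33, adjusted p = 0.0347).

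NQO1 (chr16:69706996-69726951, minus strand), which reduces quinones to hydroquinones, had 142, 145 and 146 CPM in hypoxia shRIPOR3, against 103, 101 and 103 in hypoxia shControl. It had 238, 231 and 235 CPM in normoxia shRIPOR3, against 181, 177 and 182 in normoxia shControl. The 4 groups were fully apart, with hypoxia below normoxia and shRIPOR3 above shControl. The knockdown difference was 0.49 ± 0.0337 in hypoxia and 0.38 ± 0.0340 in normoxia (adjusted p = 7.84e-12 and 2.44e-09). The oxygen difference was the steepest among the 10 genes with shControl, at -0.81 ± 0.0345 (adjusted p = 7.47e-16), and reached -0.70 ± 0.0334 with shRIPOR3. NQO1 in hypoxia shRIPOR3 still lay below NQO1 in normoxia shControl.

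The 3 genes that feed glutathione synthesis all rose with the knockdown at each oxygen level. SLC7A11 (chr4:138164097-138242349, minus strand), the transport subunit that brings in cystine in exchange for glutamate, had 61.0, 63.1 and 59.4 CPM in hypoxia shRIPOR3, against 47.0, 51.1 and 46.1 in hypoxia shControl. In normoxia it had 78.1, 78.8 and 86.3 CPM with shRIPOR3, against 43.9, 43.6 and 48.4 with shControl. The shRIPOR3 libraries were above the shControl libraries at each oxygen level, most clearly in normoxia. The difference was 0.35 ± 0.0478 in hypoxia (adjusted p = 8.92e-07) and 0.84 ± 0.0525 in normoxia (adjusted p = 4.35e-12), or 1.79 times the shControl level in normoxia. SLC7A11 was lower in hypoxia than in normoxia with shRIPOR3 (-0.41 ± 0.0479, adjusted p = 8.27e-08), and with shControl the value was 0.08 (interval -0.03 to 0.19). The antisense gene SLC7A11-AS1 shares 865 exon bases with it, and at 0.04 to 0.68 CPM per library it was far below SLC7A11.

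GCLC (chr6:53497341-53616970, minus strand), the catalytic subunit of the ligase that makes the first bond of glutathione, had 35.6, 33.6 and 33.9 CPM in hypoxia shRIPOR3, against 27.5, 25.8 and 27.0 in hypoxia shControl. It had 35.5, 35.1 and 33.6 CPM in normoxia shRIPOR3, against 24.0, 25.5 and 26.7 in normoxia shControl. The hairpin separated all libraries and the oxygen level separated none of the groups. The knockdown difference was 0.36 ± 0.0459 in hypoxia and 0.44 ± 0.0536 in normoxia (adjusted p = 2.80e-07 and 2.86e-07), whereas hypoxia against normoxia gave -0.01 with shRIPOR3 and 0.08 with shControl (intervals -0.11 to 0.09 and -0.03 to 0.18).

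GCLM (chr1:93885205-93909456, minus strand), the partner that raises the efficiency of GCLC, had 42.8, 40.9 and 39.5 CPM in hypoxia shRIPOR3, against 28.2, 30.2 and 29.1 in hypoxia shControl. In normoxia it had 52.1, 48.1 and 49.1 CPM with shRIPOR3, against 42.9, 41.0 and 42.5 with shControl. GCLM was lower in hypoxia with each hairpin, and no library of one group fell among those of its counterpart. The knockdown difference was 0.50 ± 0.0444 in hypoxia and 0.23 ± 0.0478 in normoxia (adjusted p = 8.48e-10 and 0.00031). The oxygen difference was -0.27 ± 0.0446 with shRIPOR3 and -0.54 ± 0.0477 with shControl (adjusted p = 1.26e-05 and 5.74e-10). The ratio of GCLC to GCLM per kilobase was 0.525 ± 0.0119 in hypoxia shRIPOR3, 0.577 ± 0.0386 in hypoxia shControl, 0.438 ± 0.0173 in normoxia shRIPOR3 and 0.378 ± 0.0240 in normoxia shControl (n = 3 each).

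In the thioredoxin branch TXNRD1 was abundant and strongly oxygen-dependent, whereas SRXN1 was scarce and variable. TXNRD1 (chr12:104215779-104350305, plus strand), the selenoenzyme that recharges thioredoxin with NADPH, had 472, 517 and 458 CPM in hypoxia shRIPOR3, against 485, 517 and 496 in hypoxia shControl. It had 792, 835 and 861 CPM in normoxia shRIPOR3, against 677, 625 and 655 in normoxia shControl. The hairpins overlapped in hypoxia and were apart in normoxia, with differences of -0.05 (interval -0.15 to 0.04) and 0.35 ± 0.0459 (adjusted p = 1.22e-06). TXNRD1 was lower in hypoxia with both hairpins, with log2 fold changes of -0.78 ± 0.0459 with shRIPOR3 and -0.39 ± 0.0459 with shControl (adjusted p = 8.18e-13 and 7.72e-08).

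SRXN1 (chr20:646615-653370, minus strand), which repairs over-oxidised peroxiredoxins, had 5.09, 5.18 and 5.34 CPM in hypoxia shRIPOR3, against 3.85, 4.52 and 4.02 in hypoxia shControl. In normoxia it had 5.15, 6.13 and 4.86 CPM with shRIPOR3, against 5.85, 3.72 and 4.49 with shControl. The groups were apart in hypoxia and overlapped in normoxia, where the shControl libraries alone spanned 3.72 to 5.85 CPM. The knockdown difference was 0.34 ± 0.111 in hypoxia (adjusted p = 0.0104), and without replicate 1 of hypoxia shControl it was 0.29 with an adjusted p of 0.0591. In normoxia it was 0.16 (interval -0.12 to 0.43), and without replicate 1 of normoxia shControl it was called higher (0.35, adjusted p = 0.0474).

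NOX5 (chr15:68930525-69062743, plus strand) fell steeply with the knockdown, to 0.0754 times the shControl level in hypoxia and 0.0935 times in normoxia. Its counts were 22, 16 and 22 in hypoxia shRIPOR3, against 233, 183 and 192 in hypoxia shControl. In normoxia they were 6, 9 and 11 with shRIPOR3, against 111, 56 and 122 with shControl. NOX5 averaged 0.415 ± 0.0165 CPM in hypoxia shRIPOR3, against 5.51 ± 0.160 CPM in hypoxia shControl, and 0.398 ± 0.0134 CPM in normoxia shRIPOR3, against 4.23 ± 0.265 CPM in normoxia shControl (mean ± SD, n = 3 each). No shRIPOR3 library came near a shControl library. The shRIPOR3 values rest on 6 to 22 counts per library, too few for their small SDs to be read as precision. In these bulk libraries, fewer cells with NOX5 mRNA and less NOX5 mRNA per cell cannot be told apart.

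The NOX5 log2 fold change with the knockdown was -3.73 ± 0.130 in hypoxia (adjusted p = 3.59e-17) and -3.42 ± 0.184 in normoxia (adjusted p = 2.60e-13). As a ratio of summed counts to library totals, shRIPOR3 stood at 0.0748 of shControl in hypoxia (exact 95% Poisson interval 0.0564 to 0.0976) and at 0.0916 in normoxia (0.0588 to 0.137), intervals that cover counting error only. The same ratio for RIPOR3 was 0.215 in hypoxia (0.129 to 0.345) and 0.0599 in normoxia (0.00143 to 0.382). Hypoxia against normoxia gave 0.37 ± 0.0984 for NOX5 with shControl (adjusted p = 0.00221), and 0.06 with shRIPOR3, where the interval of -0.50 to 0.61 included the shControl value. When all libraries were thinned to the smallest total, the shControl value was 0.32 with an adjusted p of 0.0522. SPESP1, which shares 193 exon bases with NOX5 on the same strand, reached at most 0.14 CPM in any library. PECAM1 and CDH5, endothelial genes, were also lower in shRIPOR3: PECAM1 averaged 1.31 CPM in hypoxia shRIPOR3, against 4.84 in hypoxia shControl, and 1.23 in normoxia shRIPOR3, against 5.36 in normoxia shControl. Their part in the NOX5 result was not tested.

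Hypoxia against normoxia gave no common direction for the set, but NQO1, GCLM and TXNRD1 fell with both hairpins. With shRIPOR3, 1 of the 10 genes was higher in hypoxia (KEAP1) and 4 were lower (NQO1, GCLM, TXNRD1 and SLC7A11), against 25.2% and 30.4% of all tested genes. With shControl, 2 were higher (NFE2L2 and NOX5) and 3 lower (NQO1, GCLM and TXNRD1), against 32.4% higher and 32.4% lower. The median of the 10 genes was -0.09 with shRIPOR3 and 0.06 with shControl, beside -0.01 and 0.02 for all tested genes. NFE2L2 differed by 0.13 ± 0.0377 with shControl (adjusted p = 0.00441) and by -0.02 with shRIPOR3 (interval -0.10 to 0.05). SRXN1 was not called with either hairpin (-0.04 with shRIPOR3 and -0.23 with shControl), although without replicate 2 of normoxia shControl it was called lower with shControl (-0.33, adjusted p = 0.0288).

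**Figure D3:**
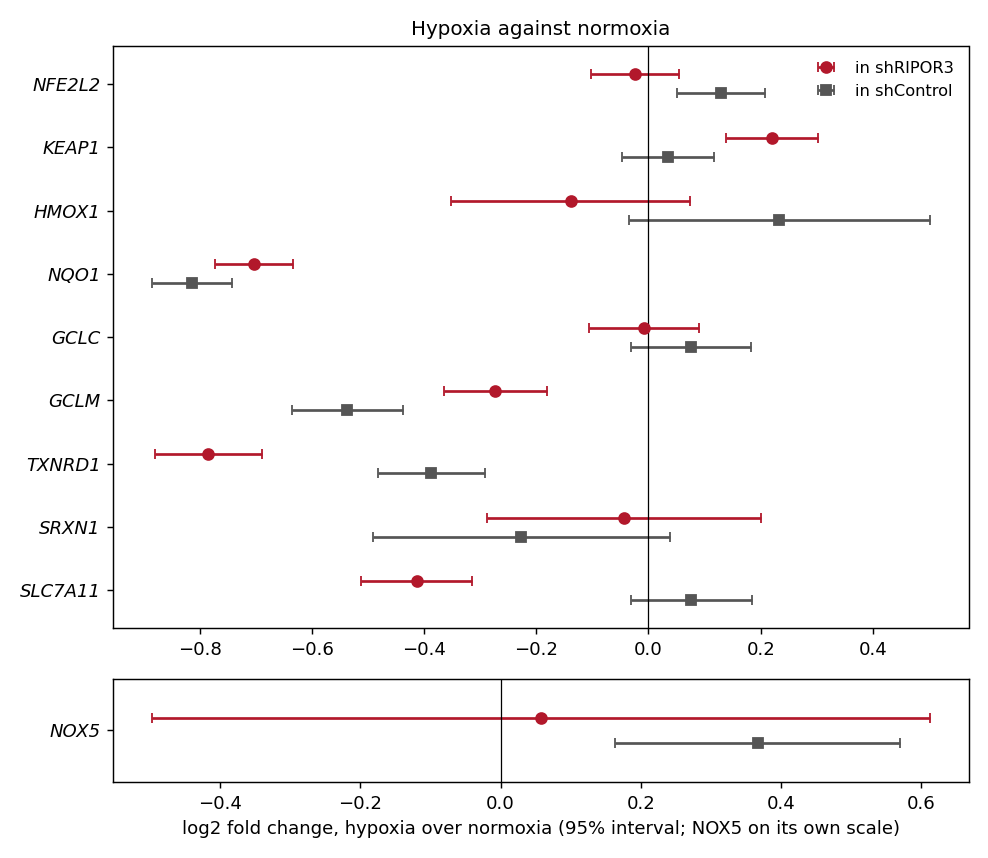
Log2 fold change of each gene, hypoxia over normoxia, with its 95% interval, with shRIPOR3 and with shControl, NOX5 on its own axis. NQO1, GCLM and TXNRD1 lie below 0 with both hairpins, SLC7A11 lies below 0 with shRIPOR3 at -0.41, and the NOX5 interval with shRIPOR3 spans 0.

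Depth and abundance moved with the oxygen level. Among the 2086 tested genes above 100 CPM, to which NQO1 and TXNRD1 belong, the median difference between hypoxia and normoxia was -0.18 with shRIPOR3 and -0.22 with shControl, and among the 2990 genes under 1 CPM it was 0.22 and 0.36. After thinning every library to one total, NQO1 was still lower in hypoxia (-0.70 with shRIPOR3 and -0.76 with shControl), as were TXNRD1 (-0.78 and -0.37) and GCLM (-0.27 and -0.48). Scaling by library totals alone, without TMM factors, moved the median of all tested genes up by 0.12 with shRIPOR3 and 0.11 with shControl. Of the genes called, 63.4% then rose with shRIPOR3, against 45.3% with TMM factors, and 61.6% rose with shControl, against 50.02% with TMM factors. Under that scaling KEAP1, HMOX1, GCLC and SLC7A11 were also called higher in hypoxia with shControl, and NFE2L2 with shRIPOR3 changed sign to 0.10 (adjusted p = 0.0384). NQO1, GCLM and TXNRD1 kept their calls with both hairpins under every alternative tried.

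The effect of hypoxia differed between the hairpins for 5 of the 10 genes. The interaction, the log2 change with shRIPOR3 minus that with shControl, was positive and called for GCLM and KEAP1 and negative and called for SLC7A11, TXNRD1 and NFE2L2, against 10.9% and 12.3% of all tested genes called in each direction. It was -0.49 ± 0.0710 for SLC7A11 (adjusted p = 2.22e-05) and -0.40 ± 0.0648 for TXNRD1 (adjusted p = 8.55e-05), the members with the smallest p. GCLM fell less in hypoxia with shRIPOR3 (0.26 ± 0.0652, adjusted p = 0.00456), and thinning to one total left it at an adjusted p of 0.0830. KEAP1 stood at 0.18 ± 0.0564 (adjusted p = 0.0193), and lost its call without replicate 3 of hypoxia shRIPOR3 (adjusted p = 0.0552) and without replicate 3 of normoxia shControl (0.0688). NFE2L2 was at the edge (-0.15 ± 0.0533, adjusted p = 0.0400): leaving out any of the 12 libraries gave an adjusted p between 0.0512 and 0.223. The interaction did not pass after adjustment for NOX5 (-0.31, unadjusted 95% interval -0.91 to 0.29), HMOX1 (-0.37, -0.71 to -0.03), GCLC (-0.08, -0.23 to 0.06) or SRXN1 (0.18, -0.18 to 0.54). Nor did it for NQO1 (0.11, 0.01 to 0.21, adjusted p = 0.102), which was called under DESeq2 (adjusted p = 0.0269).

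Across the 12 libraries, 2 kinds of profile were seen among the members, a grouping made after their values were known. It is described by correlations of log2 CPM, whose points share libraries and scaling. NQO1 and TXNRD1 mainly followed the oxygen level, with r = 0.88 between them. HMOX1, GCLC and SLC7A11 mainly followed the hairpin, with r = 0.96 between HMOX1 and GCLC and 0.88 between HMOX1 and SLC7A11. NOX5 ran opposite to these (r = -0.96 with GCLC and -0.92 with HMOX1). GCLM lay between the 2 kinds, with r = 0.95 with NQO1, 0.73 with TXNRD1, 0.67 with SLC7A11 and -0.70 with NOX5. It averaged 41.1 CPM in hypoxia shRIPOR3, close to 42.1 in normoxia shControl. NFE2L2 and KEAP1 each had a negative r with all 7 enzyme and transporter genes, from -0.80 with GCLM to -0.33 with TXNRD1 for NFE2L2, and from -0.83 with TXNRD1 to -0.44 with SRXN1 for KEAP1.

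Of 31 other NRF2 targets tested, 12 were higher and 8 lower in shRIPOR3 within hypoxia (median 0.06), and 10 were higher and 4 lower within normoxia (0.05), beside 30.7% higher and 31.2% lower of all tested genes in hypoxia, and 25.1% and 20.6% in normoxia. The medians lay near those of all tested genes (-0.003 and 0.03), and values reached down to -0.62 in hypoxia and -0.41 in normoxia. The genes named next for the knockdown are all from the higher side and do not stand for the list. FTL, the ferritin light chain, part of the iron store, had the smallest p of the list, at 1.10 ± 0.0405 in hypoxia and 1.07 ± 0.0417 in normoxia, with 226 ± 11.6 CPM in hypoxia shRIPOR3, against 105 ± 1.26 in hypoxia shControl, and 269 ± 6.99 in normoxia shRIPOR3, against 128 ± 4.89 in normoxia shControl. The autophagy receptor SQSTM1, which binds KEAP1, was higher by 0.75 ± 0.0365 in hypoxia and 0.65 ± 0.0380 in normoxia, and the microsomal glutathione transferase MGST1 by 0.80 ± 0.0389 and 0.68 ± 0.0414. TXN, thioredoxin itself, was higher by 0.35 ± 0.0438 and 0.34 ± 0.0446. Between hypoxia and normoxia, 2 of the 31 were higher and 22 lower with shRIPOR3 (median -0.33), beside 25.2% higher and 30.4% lower of all tested genes. With shControl 3 were higher and 21 lower (median -0.31), beside 32.4% and 32.4%. Examples were the peroxiredoxin PRDX1 (-0.65 ± 0.0407 with shRIPOR3 and -0.66 ± 0.0412 with shControl), PIR (-0.79 ± 0.0571 and -0.95 ± 0.0598) and the pentose phosphate enzyme TALDO1 (-0.43 ± 0.0374 and -0.57 ± 0.0382). Transketolase TKT was also lower with both hairpins (-0.33 ± 0.0353 with shRIPOR3 and -0.57 ± 0.0356 with shControl), and the exporter ABCC1 was higher with both (0.77 ± 0.0493 and 0.63 ± 0.0494).

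Among 16 tested partners and regulators of NRF2, 11 were higher in hypoxia with shRIPOR3 and 2 lower (median 0.28), beside 25.2% and 30.4% of all tested genes. With shControl 11 were higher and 5 lower (median 0.67), beside 32.4% and 32.4%, and the share of lower genes was near that of all tested genes. The acetyltransferases EP300 (1.5 ± 0.041 with shRIPOR3 and 1.66 ± 0.0410 with shControl) and CREBBP (1.38 ± 0.0408 and 1.45 ± 0.0398) led both comparisons. The related factor NFE2L1 (0.50 ± 0.0385 with shRIPOR3 and 0.63 ± 0.0386 with shControl) and the small MAF genes MAFG (0.48 ± 0.0418 and 0.60 ± 0.0417) and MAFF (0.18 ± 0.0455 and 0.79 ± 0.0446) were higher in hypoxia with both hairpins. BACH1, the repressor that competes with NRF2 for its sites on HMOX1 and other genes, had 22.8 ± 0.853 CPM in hypoxia shRIPOR3, against 42.2 ± 0.889 in hypoxia shControl, and 17.5 ± 0.464 in normoxia shRIPOR3, against 16.0 ± 0.588 in normoxia shControl. BACH1 rose in hypoxia with shControl (1.40 ± 0.0511) and less with shRIPOR3 (0.38), and this difference was itself called (-1.02 ± 0.0743, adjusted p = 8.86e-10). Within hypoxia 10 of the 16 were lower in shRIPOR3 and 4 higher (median -0.13), beside 31.2% and 30.7% of all tested genes, including BACH1 (-0.89 ± 0.0434), MAFF (-0.77 ± 0.0427) and NFE2L3 (-0.69 ± 0.0475), with the phosphatase PGAM5 higher (0.81 ± 0.0491). Within normoxia 2 were lower and 3 higher (median 0.00), beside 20.6% and 25.1%, and CREBBP (-0.28 ± 0.0447), MAFF (-0.16 ± 0.0474), PGAM5 (0.26 ± 0.0535) and GSK3B (0.18 ± 0.0459) had the smallest p.

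Several other NADPH oxidase subunits were lower with the knockdown, with smaller log2 fold changes than NOX5. Of 16 listed, 11 had a row and 8 were tested. In shRIPOR3, 5 of these 8 were lower within hypoxia and 0 higher (median -0.33), beside 31.2% lower and 30.7% higher of all tested genes. Within normoxia 4 were lower and 0 higher (median -0.28), beside 20.6% and 25.1%. The small GTPase RAC2 (-0.44 ± 0.0447 in hypoxia and -0.56 ± 0.0505 in normoxia), the membrane subunit CYBA (-0.41 ± 0.0539 and -0.22 ± 0.0589) and RAC1 (-0.26 ± 0.0381 and -0.15 ± 0.0387) were among those lower at each oxygen level. The scarce NOXA1 was lower in hypoxia by more than these (-1.92 ± 0.419), and was not called in normoxia (-0.78, interval -2.46 to 0.90). Between hypoxia and normoxia, 0 were higher and 1 lower with shRIPOR3 (RAC1, -0.10 ± 0.0384), beside 25.2% and 30.4% of all tested genes. With shControl 3 were higher and 1 lower, beside 32.4% and 32.4%, where CYBA (0.14 ± 0.0560) and NOXA1 (1.65 ± 0.502) were among those that rose, and RAC2 fell (-0.17 ± 0.0464). Per kilobase, NOX5 was the most abundant catalytic oxidase measured in shControl, at 0.441 in hypoxia and 0.338 in normoxia, followed by CYBB at 0.133 and 0.177. In shRIPOR3 that order turned, with CYBB at 0.160 in hypoxia and 0.140 in normoxia and NOX5 at 0.0332 and 0.0318. Both orders rest on annotated exon length. DUOX1 lay between 0.0446 and 0.0772 and NOX1 between 0.0241 and 0.0588 CPM per kilobase over the 4 groups, levels too low for an order to be read. NOX3, NOX4, DUOXA2, NCF1 and NOXO1, the listed genes without a row, were not analysed here, so NOX3 and NOX4 are outside these orders.

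Of 13 tested glutathione and cystine genes beyond the members, 10 were higher and 1 lower in shRIPOR3 within hypoxia (median 0.29), beside 30.7% and 31.2% of all tested genes. Within normoxia 7 were higher and 0 lower (median 0.15), beside 25.1% and 20.6%. The list mixes genes that make glutathione with genes that degrade it. Among the latter, CHAC1 was higher by 0.52 ± 0.124 in hypoxia and 1.15 ± 0.212 in normoxia. SLC3A2, the chain that carries SLC7A11 to the membrane, was higher by 0.76 ± 0.0369 in hypoxia and 0.85 ± 0.0386 in normoxia, glutathione synthetase GSS by 0.51 ± 0.0389 and 0.32 ± 0.0401, the cysteine-making CTH by 0.88 ± 0.0776 and 0.94 ± 0.0953, and GGCT by 0.52 ± 0.0506 and 0.55 ± 0.0542. Between hypoxia and normoxia 8 of the 13 were lower and 2 higher with each hairpin (median -0.20 with shRIPOR3 and -0.34 with shControl), beside 30.4% lower and 25.2% higher of all tested genes with shRIPOR3, and 32.4% each way with shControl. Among the lower genes were the glutathione-degrading CHAC2 (-0.54 ± 0.0655 with shRIPOR3 and -0.84 ± 0.0681 with shControl), GGCT (-0.52 ± 0.0496 and -0.50 ± 0.0555) and the lipid peroxidase GPX4 (-0.33 ± 0.0438 and -0.43 ± 0.0441). LANCL1 (-0.45 ± 0.0592 with shRIPOR3 and -0.38 ± 0.0593 with shControl) and GSS (-0.21 ± 0.0390 and -0.40 ± 0.0400) were also lower with both hairpins. The 2 higher genes were SLC3A2 (0.19 ± 0.0369 with shRIPOR3 and 0.29 ± 0.0382 with shControl) and CHAC1 (0.76 ± 0.146 and 1.40 ± 0.189).

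Of 25 other antioxidant enzymes tested, 14 were higher and 9 lower in shRIPOR3 within hypoxia (median 0.15), beside 30.7% and 31.2% of all tested genes. Within normoxia 12 were higher and 5 lower (median 0.11), beside 25.1% and 20.6%, and the share of lower genes was near that of all tested genes at each oxygen level. The monothiol glutaredoxins GLRX3 (0.63 ± 0.0454 in hypoxia and 0.35 ± 0.0473 in normoxia) and GLRX5 (0.44 ± 0.0395 and 0.39 ± 0.0431) were higher at each oxygen level, as were the endoplasmic reticulum peroxiredoxin PRDX4 (0.41 ± 0.0374 and 0.31 ± 0.0387), the mitochondrial TXNRD2 (0.36 ± 0.0449 and 0.36 ± 0.0509) and SESN2 (0.45 ± 0.0580 and 0.78 ± 0.0819). GLRX was higher in normoxia (0.63 ± 0.0574), with 0.11 ± 0.0504 and an adjusted p of 0.0515 in hypoxia. Among those lower at each oxygen level were MSRB3 (-0.37 ± 0.0476 in hypoxia and -0.25 ± 0.0529 in normoxia), CAT (-0.27 ± 0.0437 and -0.19 ± 0.0482) and SESN1 (-0.40 ± 0.0848 and -0.39 ± 0.102). Hypoxia against normoxia gave 2 higher and 18 lower with shRIPOR3 (median -0.31), beside 25.2% and 30.4% of all tested genes, and 3 higher and 18 lower with shControl (-0.26), beside 32.4% and 32.4%. SOD1, the cytosolic superoxide dismutase (-0.52 ± 0.0370 with shRIPOR3 and -0.59 ± 0.0373 with shControl), GLRX3 (-0.52 ± 0.0442 and -0.80 ± 0.0488) and the mitochondrial peroxiredoxin PRDX3 (-0.47 ± 0.0440 and -0.70 ± 0.0448) were lower with both hairpins. PRDX6 was lower with both too (-0.35 ± 0.0394 and -0.38 ± 0.0401), and TXNIP, which binds and inhibits thioredoxin, was higher with both (0.31 ± 0.0446 and 0.56 ± 0.0453).

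SLC7A11 is also a target of ATF4, the factor of the amino acid and stress response, and ATF4 and 12 of its known targets were therefore read beside it. Of these 13, 10 were higher and 3 lower in shRIPOR3 within hypoxia (median 0.52), beside 30.7% and 31.2% of all tested genes. Within normoxia 11 were higher and 1 lower (median 0.78), beside 25.1% and 20.6%. ATF4 itself averaged 442 ± 5.57 CPM in hypoxia shRIPOR3, against 302 ± 3.02 in hypoxia shControl, and 512 ± 5.75 in normoxia shRIPOR3, against 289 ± 1.15 in normoxia shControl (0.55 ± 0.0332 in hypoxia and 0.82 ± 0.0340 in normoxia). The serine synthesis enzyme PSAT1 was higher by 1.00 ± 0.0365 and 0.96 ± 0.0392, and the stress factor DDIT3 by 1.01 ± 0.0552 and 1.23 ± 0.0624. DDIT4 (-1.12 ± 0.0424), VLDLR (-1.10 ± 0.0514) and ATF3 (-0.15 ± 0.0635) were lower in hypoxia shRIPOR3. In normoxia DDIT4 was lower too (-0.69 ± 0.0543), VLDLR was not called (-0.18 ± 0.104) and ATF3 was higher (0.74 ± 0.0830). Between hypoxia and normoxia 7 were higher and 3 lower with shRIPOR3 (median 0.19), beside 25.2% and 30.4% of all tested genes, and 9 higher and 2 lower with shControl (0.53), beside 32.4% and 32.4%. The higher genes were led by DDIT4 (1.81 ± 0.05 with shRIPOR3 and 2.24 ± 0.0471 with shControl) and VLDLR (1.68 ± 0.0784 and 2.60 ± 0.0705), with SLC7A5 (0.32 ± 0.0391 and 0.53 ± 0.0402) and SESN2 (0.49 ± 0.0644 and 0.81 ± 0.0759). PHGDH was lower with both hairpins (-0.31 ± 0.0471 and -0.22 ± 0.0497). ATF4 (-0.21 ± 0.0332) and DDIT3 (-0.30 ± 0.0529) were called lower with shRIPOR3 alone, and PSAT1 (-0.11 ± 0.0396) with shControl alone. The interaction was negative and called for 7 of the 13 and positive and called for 0, beside 12.3% and 10.9% of all tested genes, and ATF4 was among the 7 (-0.28, adjusted p = 0.000158). CHAC1 and SLC3A2 belong to this list and to the glutathione list, and SESN2 to this list and to that of antioxidant enzymes. GSR belongs to the glutathione list and to that of other NRF2 targets. The part of ATF4 in the SLC7A11 values was not tested.

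**Figure D4:**
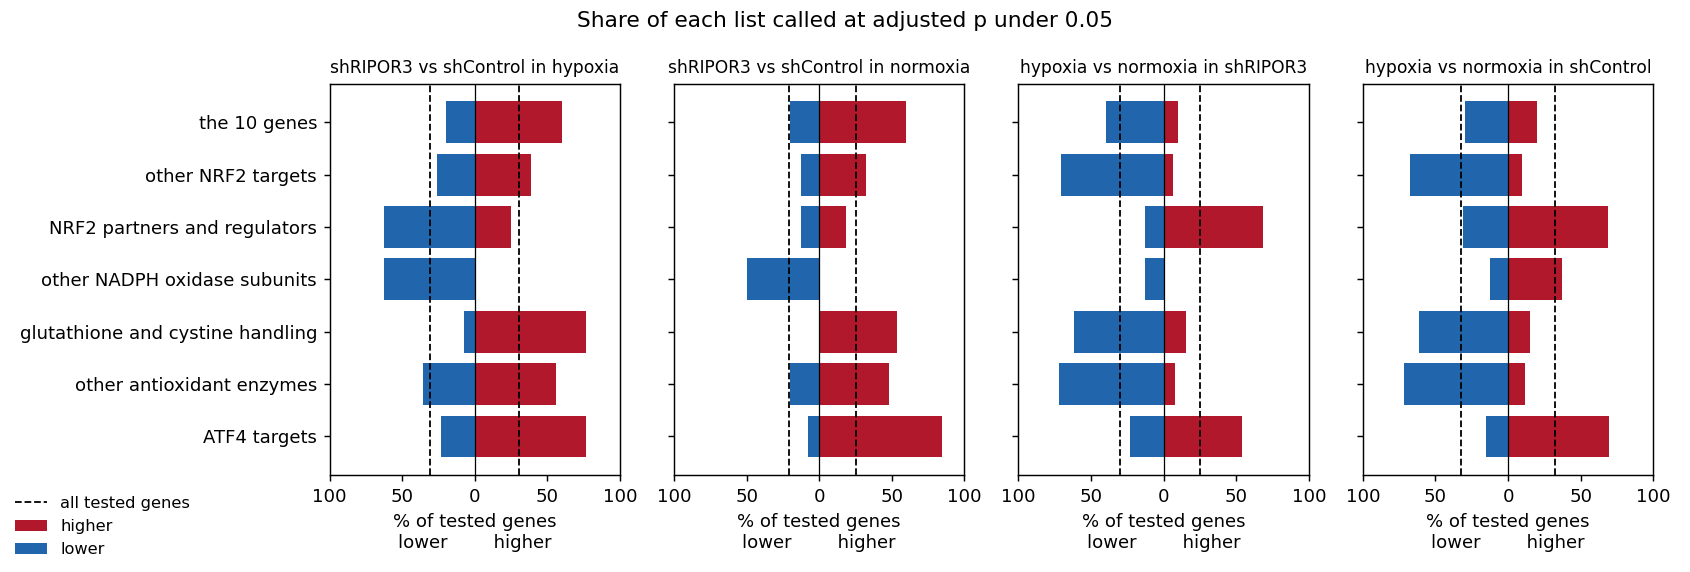
Percent of the tested genes of each list called higher (right, red) or lower (left, blue) at an adjusted p under 0.05 in the 4 comparisons, with dashed lines at the percent of all tested genes called. Glutathione and cystine genes reach 10 of 13 higher with the knockdown in hypoxia, and other antioxidant enzymes reach 18 of 25 lower in hypoxia with each hairpin.

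Genes whose profile was most like that of 3 members were sought among the 10262 tested genes that reached 5 CPM in a group, by Pearson's r of log2 CPM over the 12 libraries. Among the 4 nearest to NOX5 were ADD1 (r = 0.997), EMP1 (0.996) and SLCO4A1 (0.995). SLCO4A1 averaged 1.91 CPM in hypoxia shRIPOR3, against 16.5 in hypoxia shControl, and 1.86 in normoxia shRIPOR3, against 13.9 in normoxia shControl, with a knockdown difference of -3.10 ± 0.0918 in hypoxia and -2.90 ± 0.121 in normoxia. The difference was smaller for ADD1 (-1.04 ± 0.0348 and -1.03 ± 0.0367) and EMP1 (-0.89 ± 0.0362 and -0.74 ± 0.0400). Nearest to HMOX1 were AC006213.2 (0.976), C5ORF30 (0.971), C4ORF32 (0.968) and BCAT1 (0.967), and nearest to SLC7A11 were PYGL (0.981), TMEM136 (0.976), AC113346.1 (0.976) and CASP4 (0.971). With 4 groups, a high r mainly records that 2 genes order the groups alike.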

How the data were processed

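Gene expression in MDA-MB-231 cells was measured by mRNA sequencing in 12 libraries, 3 per combination of hairpin and oxygen level. The authors deposited raw counts per gene symbol, 1 column per library. The tools listed in the submitters' processing notes are STAR 2.5.3a, featureCounts and fastp 0.23.4, with the build GRCh38, and the labels' protocols describe a stranded mRNA kit. For the annotation, the strand setting of the counting and the treatment of duplicates the sources used here give nothing, so reads of a gene and an antisense partner may not be separable.

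A negative binomial model of all 12 libraries, with a mean for each of the 4 groups, was fitted with edgeR 4.0.16 under R 4.3.3. Of 24641 symbols filterByExpr kept 15648, and TMM factors ran between 0.952 and 1.048. Quasi-likelihood p-values received the Benjamini-Hochberg adjustment over all tested genes and were called under 0.05. The SE of a log2 fold change was derived from that change and the F statistic of its test, and the 95% intervals from this SE. For scarce genes such as NOX5 these intervals can be narrower than the p-value implies. The biological coefficient of variation was 3.74%. Comparisons were shRIPOR3 against shControl within each oxygen level, hypoxia against normoxia within each hairpin, and their interaction. Depth limits the scarce genes most, NOX5 and RIPOR3 above all, and Poisson intervals are exact at 95%. Every replicate pair differed by more than sampling noise (chi-square per degree of freedom 2.49 to 5.62). Replicate numbers did not pair libraries (median correlation -0.000513 over 18 pairs), so they were not used as a block.

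The members and gene lists were chosen with earlier results of these data known. The named genes are the 10 members and RIPOR3, up to 4 members of each list with the smallest p in the comparison described, and the 4 genes nearest in profile to NOX5, HMOX1 and SLC7A11, and some genes that this rule takes are not reported here. ATF4, SPESP1, SLC7A11-AS1, AC019080.1, AGPS, CYBB, DUOX1, NOX1, PECAM1, CDH5, MSRB3, CAT and SESN1, and values of a named gene in a second comparison, were added beside a result after their values were seen. ATF3, PHGDH and CHAC1 were added in the same way. Symbols were matched to GENCODE 29 without regard to case (24044 with 1 gene, 60 with several, 537 with none), and 24 symbols turned into dates, with 0.200% of the counts, were kept. CPM per kilobase uses the union of exons. Results were recomputed with DESeq2 1.42.0, with 3 other scalings (median-of-ratios, upper-quartile, library totals alone), after thinning to the smallest total, with looser and stricter filters (none, or 1 CPM in at least 3 libraries), at a threshold of 0.01, from the compared groups alone, with replicate number as a block, and without each library in turn. The steps were tested on simulated data. Python 3.11.15, pandas 2.3.3 and matplotlib 3.10.9 served for sequences and figures.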

Additional observations from a re-analysis of the deposited data

Results flagged for a closer look

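For 5 of the 10 genes the effect of hypoxia was called different between the hairpins, by the interaction term of the edgeR quasi-likelihood fit with Benjamini-Hochberg adjustment over all tested genes (log2 change with shRIPOR3 minus that with shControl). Of all tested genes, 10.9% were called with a positive interaction and 12.3% with a negative one. SLC7A11 differed by -0.49 (adjusted p = 2.22e-05), with 3 of 3 shRIPOR3 libraries lower in hypoxia than any in normoxia and overlapping shControl libraries. TXNRD1 differed by -0.40 (adjusted p = 8.55e-05), falling with both hairpins and further with shRIPOR3. GCLM differed by 0.26 (adjusted p = 0.00456), falling with both hairpins and further with shControl, and lost this call after thinning (adjusted p = 0.0830). KEAP1 differed by 0.18 (adjusted p = 0.0193), higher in hypoxia in 3 of 3 shRIPOR3 libraries. Its call was lost without replicate 3 of hypoxia shRIPOR3 (adjusted p = 0.0552) and without replicate 3 of normoxia shControl (0.0688). NFE2L2 differed by -0.15 (adjusted p = 0.0400), higher in hypoxia in 3 of 3 shControl libraries. Its call was lost when any of the 12 libraries was left out (adjusted p between 0.0512 and 0.223).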

How the results depend on the processing

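Over 1090 recomputed values of single members, 25 lost their call, 10 gained one and 1 turned its sign and was called, NFE2L2 in hypoxia against normoxia with shRIPOR3, at 0.10 with library totals alone. The other 1054 kept their side of the threshold, and 24 of them, in 5 comparisons of a gene, changed sign without a call in either setting. With library totals 2 members were called higher in hypoxia with shRIPOR3 and 6 with shControl, and after thinning 1 with shControl. Library totals also moved all genes up: 63.4% of all calls were then higher with shRIPOR3, against 45.3% with TMM factors. With shControl 61.6% were higher, against 50.02%, so the member counts under that scaling are not particular to the members. Members called with a positive interaction numbered 1 after thinning, 1 at a threshold of 0.01, and 1 to 3 when single libraries were left out. All genes with a called interaction fell to 2185 at a threshold of 0.01, against 3624. NFE2L2 also lost its interaction call under DESeq2 (adjusted p = 0.129), median-of-ratios factors (0.0815), upper-quartile factors (0.0605), library totals (0.0720) and no filter (0.194), while NQO1 gained one under DESeq2 (0.0269), median-of-ratios factors (0.0462) and without replicate 3 of hypoxia shControl (0.0265). At a threshold of 0.01 SRXN1 lost its knockdown call in hypoxia. The cause of these shifts was not tested. Libraries with one replicate number did not correlate, and a fit with a replicate block changed no member's call and called 3596 genes in the interaction. Depth limits NOX5 in shRIPOR3 most, with 6 to 22 counts per library.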
